A study of Mus musculus with 17 samples.

Results

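Acyl-CoA thioesterases cut the bond between a fatty acid and coenzyme A, which returns a free fatty acid and free coenzyme A. The 7 genes described here, Acot1, Acot2, Acot7, Acot8, Acot9, Acot11 and Acot13, were chosen by gene symbol from the 21798 genes of the deposited expression table, and they were proposed when results of these data were already known. Which of those values led to the choice is not recorded, so the tests below describe these 17 libraries and give no independent support. All 7 members passed the filter on low values, as did 16218 genes in all. The table holds 12 genes with an Acot symbol, and the remaining 5 (Acot3, Acot4, Acot6, Acot10 and Acot12) are given beside the members so that the family is accounted for. Acot5 was not analysed here.

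The libraries were made from polyA RNA of the left ventricular apex of male C57Bl6/J mice aged between 7 and 8 weeks at surgery, with 1 library for each mouse. TAC mice had the transverse aorta narrowed by a ligature, which loads the left ventricle with pressure, and Sham mice had the same operation with no ligature. From 1 week after surgery mice were given by gavage either 50 μg/kg of 29P, an oral prodrug that mimics the RGD motif and binds the integrin αvβ3, or saline (Veh, called Saline in the labels), and the hearts were taken 3 weeks after surgery. The groups were Sham Veh (libraries S5, S6, S13, S19 and S20, n = 5), Sham 29P (S4, S14 and S15, n = 3), TAC Veh (S2, S12 and S16, n = 3) and TAC 29P (S1, S3, S8, S9, S11 and S18, n = 6). The authors had set aside 1 further TAC Veh library because it clustered with Sham libraries, so the TAC Veh group was in part selected on its expression.

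In the heart, where fatty acids are the main fuel, long-chain acyl-CoA is made at the mitochondrial and endoplasmic reticulum membranes and is either oxidised or stored. Thioesterases act against that flow in separate compartments. Acot1 works in the cytosol and Acot2 in the mitochondrial matrix, and both are classic targets of the nuclear receptor PPARα. Acot7 is a cytosolic enzyme best known from brain, Acot8 is peroxisomal, and Acot9 and its near copy Acot10 are mitochondrial. Acot11 carries a lipid-binding START domain and was first described as a cold-induced gene of brown fat. Acot13, also called Them2, is a small hotdog-fold enzyme found largely at mitochondria.

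Acot1 and Acot2 lie side by side on the plus strand of chromosome 12, at chr12:84009490-84018371 and chr12:83987861-83993873 (GRCm38, GENCODE M21), with Acot4, Acot3 and Acot6 downstream. Their coding sequences, of 1257 and 1359 bases, aligned as 1 block of 1236 bases with 95.3% identity, and the longest run with no difference was 273 bases. Acot2 carried 123 coding bases ahead of the position that matches the Acot1 start codon, and this stretch encodes the leader that takes the enzyme into mitochondria. The stretch is shown first, at chr12:83987902-83988024, because it is the coding part with no counterpart in Acot1. The next 120 bases of Acot2 (chr12:83988025-83988144) and the first 120 of Acot1 (chr12:84009510-84009629), all in the first coding exon, are shown with capitals at the 13 bases that differ.
Acot2 leader: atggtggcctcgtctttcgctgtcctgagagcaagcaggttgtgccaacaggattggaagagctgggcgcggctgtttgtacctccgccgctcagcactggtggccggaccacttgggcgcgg
Acot1 start: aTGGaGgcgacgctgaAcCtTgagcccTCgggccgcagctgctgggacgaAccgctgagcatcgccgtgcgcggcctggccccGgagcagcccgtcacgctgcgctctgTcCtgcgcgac
Acot2 at the Acot1 start: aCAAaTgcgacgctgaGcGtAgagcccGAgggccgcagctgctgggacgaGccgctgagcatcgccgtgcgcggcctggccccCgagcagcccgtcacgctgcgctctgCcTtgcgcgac

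This likeness bears on how far the members' values can be separated. Of all 75-base windows of the longest coding transcript, 26.4% of those of Acot1 and 21.2% of those of Acot2 also occurred in a transcript of another gene, mostly in each other. The corresponding share was 7.15% for Acot9, all of it in Acot10, whose coding sequence was 97.2% identical over 1317 bases. Acot8 shared 15.8% of its windows with Snx21 and Acot11 shared 17.3% with Fam151a, genes that overlap them on the opposite strand, and the strand setting of the authors' counting is not given in the sources used here. Acot7 and Acot13 shared none. The deposited values matched this division in part: divided by the value of 1 read, they were whole to within 0.05 in 17 of 17 libraries for Acot7, Acot11 and Acot13, in 3 of 17 for Acot1 and for Acot2, in 1 of 17 for Acot9 and in 0 of 17 for Acot8. Values of Acot1, Acot2, Acot8 and Acot9 are therefore not sums of whole reads, and their split from the genes named is uncertain.

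Depth, recovered from the size of 1 read, was between 14.2 M and 23.8 M reads per library, which put the lowest Acot1 value at 35.5 read equivalents and the lowest Acot8 value at 18.1. S14 (Sham 29P) had the fewest reads and the most genes listed at 0. S18 (TAC 29P), S19 and S20 (both Sham Veh) held atrial transcripts, with Sln, the atrial regulator of the calcium pump, at 162, 441 and 332 CPM (the deposited unit, reads of a gene scaled to library size) against at most 0.626 CPM in the other 14 libraries. Mitochondrial-encoded transcripts took 33.5% ± 3.64 (SD, n = 5) of reads in Sham Veh, 35.6% ± 3.83 (n = 3) in Sham 29P, 26.1% ± 2.22 (n = 3) in TAC Veh and 27.3% ± 1.69 (n = 6) in TAC 29P. With these shares the middle log2 fold change among the genes tested was 0.35 between TAC Veh and Sham Veh and 0.37 between TAC 29P and Sham 29P in deposited CPM, and 0.0083 and 0.018 after scaling with TMM factors (trimmed mean of M values). Changes of the members between surgery groups with vehicle, and those of Acot1, Acot2, Acot8 and Acot9 under 29P, are therefore given on both scales. Other genes and lists are given on deposited CPM, to be read against these medians.

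Measured per kilobase of annotated exon in Sham Veh, Acot13 was the most abundant member at 262 ± 22.5 CPM per kb (SD, n = 5), above Acot2 at 23.4 ± 4.59. Acot7 followed at 14.4 ± 2.64 and Acot9 at 9.63 ± 2.0. Acot1 stood at 3.00 ± 0.971, Acot11 at 1.97 ± 0.316 and Acot8 at 1.71 ± 0.324. The ranges of libraries did not overlap between Acot13 and Acot2 or between Acot9 and Acot1, and they overlapped at every other step of this order, so those neighbours were not separated beyond the spread between libraries. Compared within each library, Acot2 was nevertheless above Acot7, and Acot7 above Acot9, in 5 of 5 Sham Veh libraries, while Acot1 was above Acot11, and Acot11 above Acot8, in 4 of 5. The order of means was the same in Sham 29P. In TAC Veh, Acot1 was last at 0.572 ± 0.106 CPM per kb (n = 3), below the range of Acot8 at 2.07 ± 0.4002. In TAC 29P it was last again, at 1.90 ± 0.470 (n = 6), but its range overlapped that of Acot8 at 2.35 ± 0.240. The gene models the authors counted on could not be matched to the annotation used here, and the order of members with close levels depends on the length taken. Per kilobase of the longest coding transcript, Acot1 was still last in TAC Veh, at 0.987 ± 0.183 CPM per kb, but in TAC 29P it stood at 3.28 ± 0.811, above Acot11 at 2.54 ± 0.253 and below Acot8 at 4.08 ± 0.415. By that length Acot7, at 19.7 ± 1.05, was also above Acot2, at 14.8 ± 1.04, in TAC Veh.

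**Figure D1:**
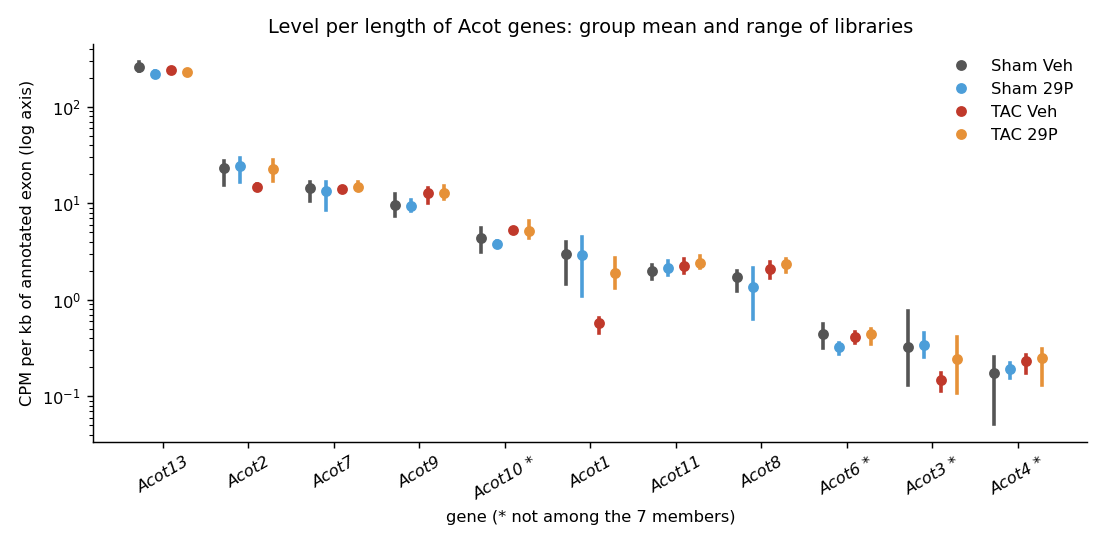
Level of each Acot gene per kilobase of annotated exon (CPM per kb, log axis) in the 4 groups, with points at group means and bars from the lowest to the highest library; Acot12, listed at 0 in 9 of 17 libraries, is left out. Acot13 sits at 204 to 292 CPM per kb in all 17 libraries, and Acot1 is the member whose TAC Veh bar, around 0.572 CPM per kb, stands apart from its other groups.

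Of the other family genes, Acot10 was at 4.40 ± 0.961 CPM per kb in Sham Veh (SD, n = 5), Acot6 at 0.443 ± 0.108, Acot3 at 0.328 ± 0.267 and Acot4 at 0.172 ± 0.0806. Acot12, a cytosolic acetyl-CoA hydrolase of liver, reached at most 0.134 CPM and was listed at 0 in 9 of 17 libraries. Among thioesterases outside the Acot symbols, Them4 was at 2.96 ± 0.298 CPM per kb and Baat, the bile acid conjugating enzyme, was listed at 0 in 7 of 17 libraries.

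The first question the design asks of these genes is what pressure overload did with vehicle alone. By the ratio of geometric means Acot1 was 5.03-fold and Acot2 1.55-fold lower in TAC Veh, and both passed the test. Acot7, Acot8, Acot9, Acot11 and Acot13 did not pass it on deposited CPM. In Sham Veh, Acot1 stood at 13.7 CPM in S5, 12.9 in S6, 10.7 in S13, 5.74 in S19 and 15.7 in S20. In TAC Veh it was at 1.77 CPM in S2, 2.39 in S12 and 2.56 in S16. All 3 TAC Veh libraries lay below all 5 Sham Veh libraries. Of the Sham Veh libraries with atrial transcripts, S19 was the lowest of its group and S20 the highest. The log2 fold change was −2.33 ± 0.38 (SE; limma adjusted p = 0.00155; exact two-sided permutation p = 0.0357, the smallest these group sizes allow), and −2.67 with TMM factors (adjusted p = 0.000572).

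Acot2, which the study placed in its own panel of metabolic genes chosen on these same libraries, was at 60.3 CPM in S5, 53.4 in S6, 53.0 in S13, 34.2 in S19 and 56.2 in S20 of Sham Veh. It was at 30.2 CPM in S2, 34.7 in S12 and 32.9 in S16 of TAC Veh. The groups overlapped only through S19, which lay below S12. The log2 fold change was −0.63 ± 0.20 (limma adjusted p = 0.0316; exact two-sided permutation p = 0.0714), and −0.97 with TMM factors (adjusted p = 0.00363). On deposited CPM this call was lost, with adjusted p between 0.0524 and 0.142, in 6 of the 8 fits that left out 1 library of these groups (each of S5, S6, S20, S2, S12 and S16), with the log2 fold change between −0.77 and −0.57 over all 8. The call on Acot1 held in all 8, between −2.57 and −2.17.

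**Figure D2:**
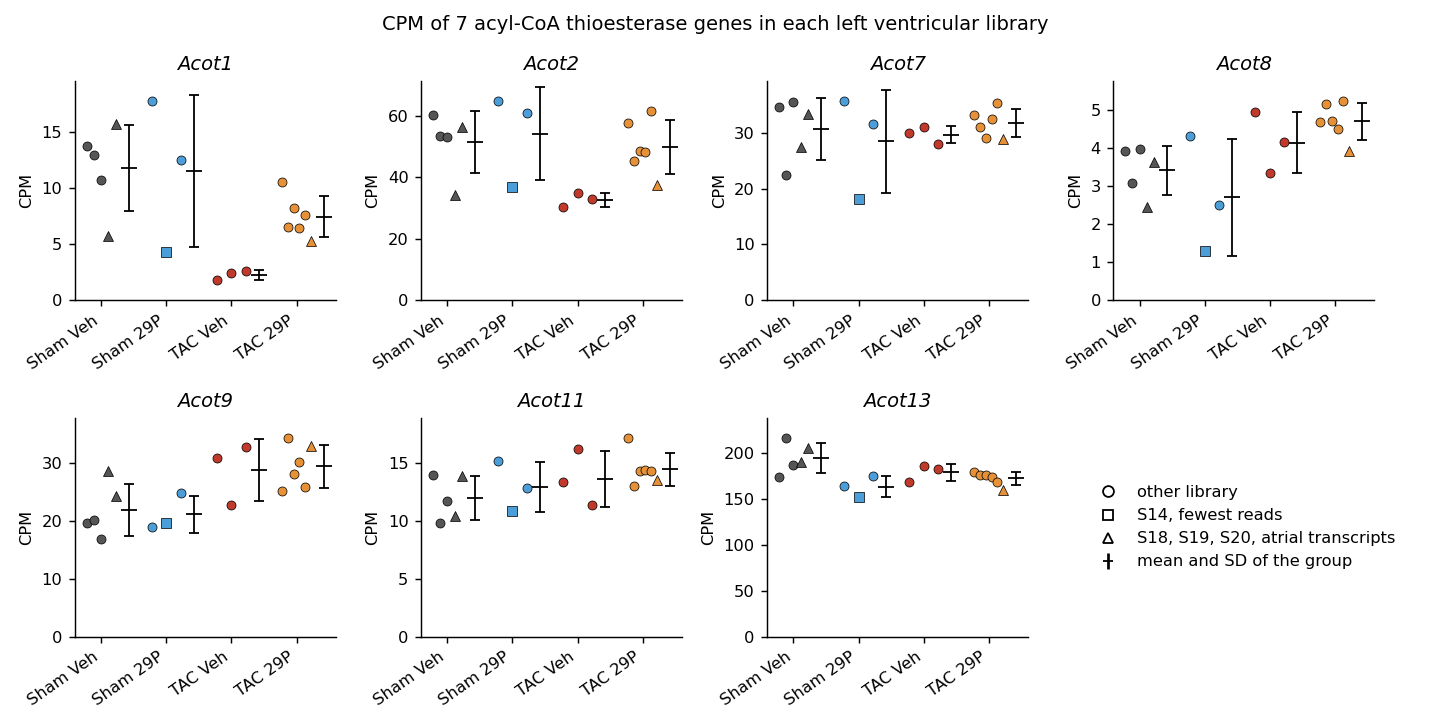
CPM of each member in every library by group (linear axes from 0), with the group mean and SD beside the points; squares mark S14 and triangles S18, S19 and S20. Acot1 in TAC Veh lies between 1.77 and 2.56 CPM, below every library of the other groups, while Acot13 stays between 152 and 217 CPM throughout.

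The sum of Acot1 and Acot2, which does not depend on how shared reads were split between them, was 63.2 ± 13.7 CPM in Sham Veh (SD, n = 5) and 34.9 ± 2.62 in TAC Veh (n = 3), a difference of −0.83 in mean log2. Acot1 made up 18.2% ± 2.797 of that sum in Sham Veh and 6.40% ± 0.839 in TAC Veh, with no overlap between 14.4%, the lowest Sham Veh value, and 7.22%, the highest TAC Veh value. By these values Acot1 was also low relative to its near copy within the same libraries. Unlike the sum, this share depends on how shared reads were split, which is uncertain.

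Of the 5 members that did not pass, Acot9 was highest relative to its Sham group, at 28.8 ± 5.34 CPM in TAC Veh against 21.9 ± 4.55 in Sham Veh. Its log2 fold change of 0.40 ± 0.17 had an unadjusted p of 0.0297 (limma adjusted p = 0.0864), where 37.4% of all genes were higher at that unadjusted threshold. It passed without S18, S19 and S20 (0.60, adjusted p = 0.0320), without S19 alone and without S12 alone, and was 0.07 with TMM factors (adjusted p = 0.850). Acot8 was at 4.14 ± 0.799 CPM against 3.41 ± 0.646 (log2 fold change 0.29 ± 0.29, limma adjusted p = 0.462). Acot11 was at 13.6 ± 2.43 against 11.96 ± 1.92 (0.19 ± 0.16, adjusted p = 0.373), and Acot7 at 29.7 ± 1.58 against 30.7 ± 5.597 (−0.03 ± 0.19, adjusted p = 0.923). With TMM factors these 3 had −0.052, −0.15 and −0.36 and did not pass (adjusted p = 0.915, 0.524 and 0.114). Acot13 was at 179 ± 9.39 CPM against 195 ± 16.7 (−0.12 ± 0.09, adjusted p = 0.306), and with TMM factors its log2 fold change was −0.46 and passed the test (adjusted p = 0.0228).

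In all, 2 of the 7 members were called lower and 0 higher. Over all genes tested, 1.91% were called lower and 22.5% higher, and 2.23% had every TAC Veh library below every Sham Veh library, as Acot1 did. The median log2 fold change of the members was −0.03 against 0.35 for all genes tested. The 4 other family genes tested did not pass: Acot3 had −0.83 ± 0.53, Acot4 0.60 ± 0.43, Acot6 −0.08 ± 0.22 and Acot10 0.29 ± 0.18 (adjusted p between 0.224 and 0.801).

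The same surgery comparison under 29P gave a different list of called members, though whether the changes differed was tested only by the interaction given further on. Acot1 and Acot2 did not pass here, and Acot8 and Acot9 were called higher in TAC 29P than in Sham 29P. Acot8 was at 4.31 CPM in S4, 1.28 in S14 and 2.50 in S15 of Sham 29P, and at 4.68, 5.14, 4.71, 4.49, 5.23 and 3.91 in S1, S3, S8, S9, S11 and S18 of TAC 29P. The groups overlapped, since S4 lay above S18, and S14 was the lowest of all 17 libraries. The log2 fold change was 0.96 ± 0.28 (limma adjusted p = 0.0185), without S14 it was 0.51 (adjusted p = 0.171), and with TMM factors 0.61 (adjusted p = 0.0973).

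Acot9 was at 18.97 CPM in S4, 19.6 in S14 and 24.8 in S15, and in TAC 29P at 25.1, 34.4, 28.1, 30.1, 25.9 and 33.0 in the same order of libraries. All 6 TAC 29P libraries lay above all 3 of Sham 29P, by a narrow gap between S15 and S1. The log2 fold change was 0.48 ± 0.17 (limma adjusted p = 0.0373; exact two-sided permutation p = 0.0238, the smallest possible), and with TMM factors 0.12 (adjusted p = 0.674). The call was lost without S4, S14, S3, S9 or S18, each left out alone (adjusted p between 0.0587 and 0.159). Acot10, its near copy, stood at 7.92 ± 1.25 CPM in TAC 29P against 5.82 ± 0.390 in Sham 29P (0.43 ± 0.17, adjusted p = 0.0629), and Acot9 made up 78.8% ± 2.29 and 78.3% ± 1.37 of the pair's sum.

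Acot1 in Sham 29P was at 17.8 CPM in S4, 4.26 in S14 and 12.5 in S15, a wide spread, and in TAC 29P at 10.6, 6.55, 8.25, 6.47, 7.63 and 5.24. All 6 TAC 29P libraries lay between the lowest and the highest Sham 29P library. The log2 fold change was −0.43 ± 0.37 (limma adjusted p = 0.364), and it was −1.04 without S14 (adjusted p = 0.0571) and −0.0073 without S4 (adjusted p = 0.9902). Acot2 was at 64.8, 36.9 and 60.8 CPM in S4, S14 and S15 and at 57.7, 45.1, 48.3, 48.1, 61.5 and 37.4 in TAC 29P, again within the Sham 29P range (−0.10 ± 0.19, adjusted p = 0.713). With TMM factors the log2 fold change was −0.79 for Acot1 (limma adjusted p = 0.138) and −0.46 for Acot2 (adjusted p = 0.105). The median over all genes tested on that scale was 0.018. For Acot7, Acot11 and Acot13 the log2 fold changes on deposited CPM were 0.21 ± 0.18, 0.17 ± 0.15 and 0.08 ± 0.08 (adjusted p between 0.366 and 0.492).

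So 2 of the 7 members were called higher and 0 lower where 31.4% of all genes were called higher, and 25% of all genes had every TAC 29P library above every Sham 29P library. The members' share is near that background. Both calls were absent with TMM or median-of-ratios factors, with a term for the series of animal numbers described further on, and without S14.

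**Figure D3:**
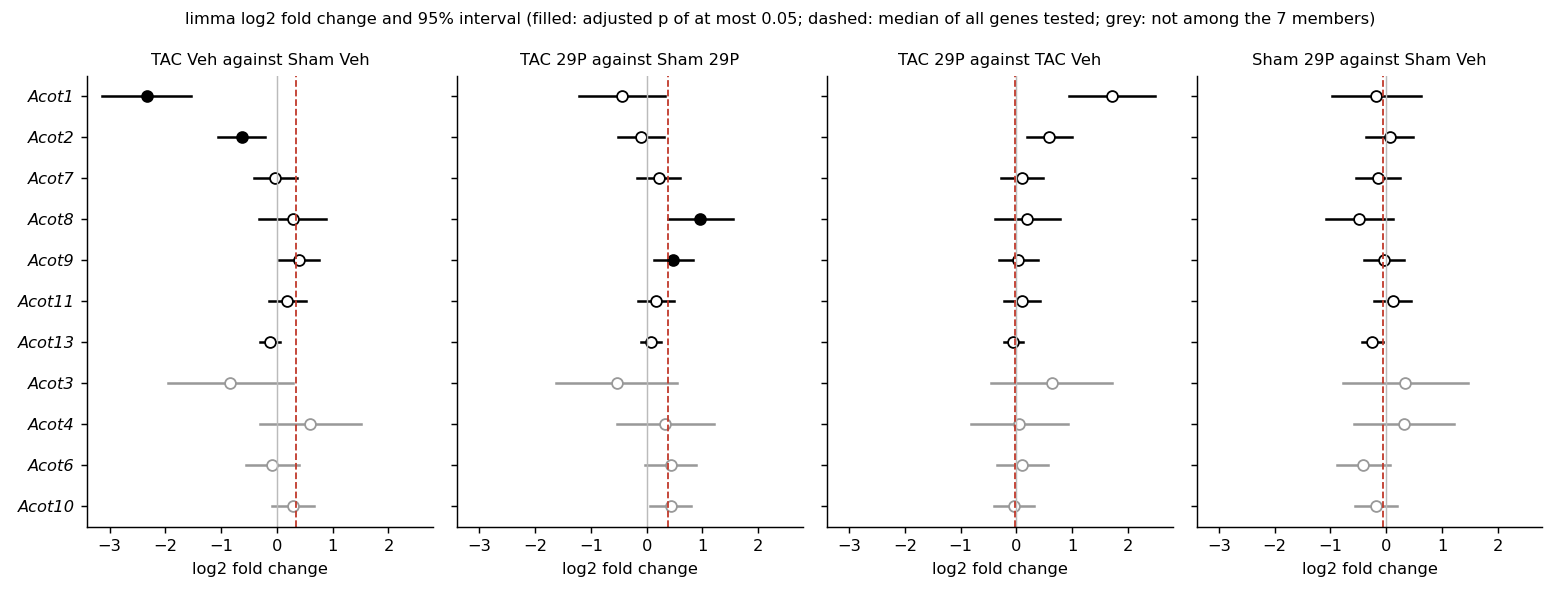
Log2 fold change with its 95% interval for the 7 members (black) and 4 other Acot genes (grey) in 4 comparisons on deposited CPM; filled points had a limma adjusted p of at most 0.05 and the dashed line marks the median over every gene tested. Acot1 at −2.33 and Acot2 at −0.63 are filled in the vehicle comparison, Acot8 at 0.96 and Acot9 at 0.48 in the 29P comparison, and none in the comparisons of 29P with Veh.

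The question of what 29P did in the constricted heart gave groups that did not overlap for both genes of the same pair, without a call. Acot1 was at 7.45 ± 1.84 CPM in TAC 29P (SD, n = 6) against 2.24 ± 0.415 in TAC Veh (n = 3), and the geometric means had a ratio of 3.28. Every TAC 29P library, from 5.24 CPM in S18 upward, lay above every TAC Veh library, of which the highest was S16 at 2.56. The log2 fold change was 1.71 ± 0.37 (95% interval 0.94 to 2.49; limma unadjusted p = 0.000200, adjusted p = 0.540; exact two-sided permutation p = 0.0238, the smallest possible). Over the alternatives tried the adjusted p of Acot1 ran from 0.080, with these 2 groups fitted alone, to 1.0. Acot2 was at 49.7 ± 8.74 CPM against 32.6 ± 2.27, with a ratio of geometric means of 1.51, again with all 6 libraries above all 3, although S18 at 37.4 was close to S12 at 34.7. Its log2 fold change was 0.59 ± 0.19 (0.18 to 1.001; unadjusted p = 0.00729, adjusted p = 1.0; exact two-sided permutation p = 0.0238).

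The sum of Acot1 and Acot2 was 57.1 ± 10.2 CPM in TAC 29P, 0.70 higher in mean log2 than in TAC Veh, and Acot1 made up 12.98% ± 1.70 of it against 6.40% ± 0.839. The remaining members lay close together in the 2 groups. Their log2 fold changes were 0.09 ± 0.18 for Acot7, 0.19 ± 0.28 for Acot8, 0.04 ± 0.17 for Acot9, 0.09 ± 0.15 for Acot11 and −0.05 ± 0.08 for Acot13, and the widest 95% interval, that of Acot8, ran from −0.39 to 0.78. By limma 0 of the 7 members passed the adjusted threshold, as did 0% of all genes tested. At an unadjusted p of 0.05, the threshold the study states, 2 members were higher where 1.05% of all genes were, and 0.839% of all genes had every TAC 29P library above every TAC Veh library. The study's metabolic panel holds Acot2 as a gene reduced in TAC Veh and moved back towards Sham levels by 29P. Its place among these 2 members is therefore not independent of the study's own result. The values for Acot1 and Acot2 hardly moved with scaling, at 1.71 to 1.74 for Acot1 and 0.59 to 0.62 for Acot2 over the 4 scalings tried.

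**Figure D4:**
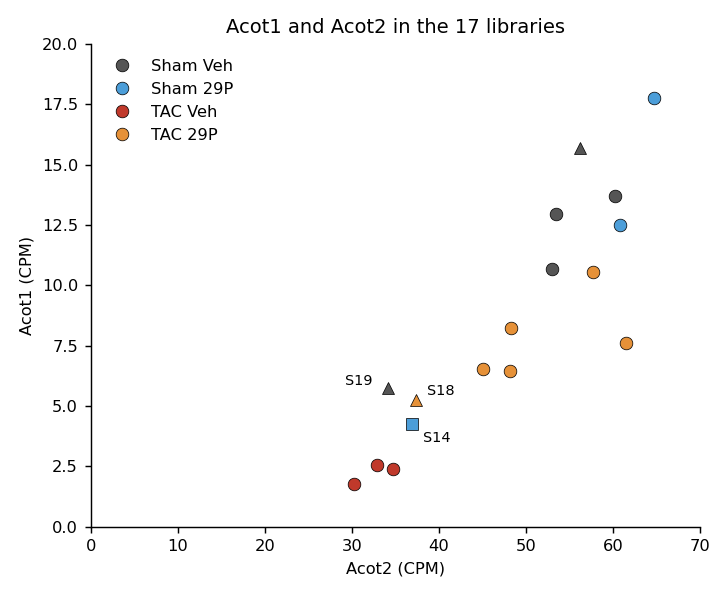
Acot1 against Acot2 (both CPM, linear axes from 0) in the 17 libraries, coloured by group; the square is S14 and triangles are S18, S19 and S20. The 3 TAC Veh libraries sit at the lower left, at 1.77 to 2.56 CPM of Acot1, with S14, S19 and S18 nearest to them.

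In Sham hearts the pair showed no such separation. Acot1 was at 11.5 ± 6.80 CPM in Sham 29P (n = 3) against 11.8 ± 3.81 in Sham Veh (n = 5), with a log2 difference of −0.18 ± 0.38 and a 95% interval from −0.98 to 0.62, which leaves room for a change of some size either way. Acot2 was at 54.2 ± 15.1 against 51.4 ± 10.1 CPM (0.06 ± 0.20, interval −0.37 to 0.48). Acot13 was the 1 member with an unadjusted p under the threshold, at 164 ± 11.6 CPM in Sham 29P against 195 ± 16.7 in Sham Veh (−0.25 ± 0.09; limma unadjusted p = 0.0105, adjusted p = 0.651), where 5.89% of all genes were lower at that threshold. Its groups touched, with S15 at 175.3 CPM and S5 at 174.4. By the adjusted threshold 0 members passed, against 0.00617% of all genes.

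The difference between the change with 29P in TAC and in Sham was 1.90 ± 0.53 for Acot1 on the log2 scale (95% interval 0.79 to 3.00; limma unadjusted p = 0.00213, adjusted p = 0.998). At that unadjusted threshold 1 member was higher where 1.98% of all genes were, and 0 members passed the adjusted one, against 0.00617% of all genes. For Acot2 it was 0.53 ± 0.28 (unadjusted p = 0.0738), and for the other 5 members between −0.02 and 0.68 (unadjusted p of at least 0.107). The comparison of TAC 29P with TAC Veh shares all its libraries with the 2 surgery comparisons, so the values of a gene in them are not independent of each other.

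**Figure D5:**
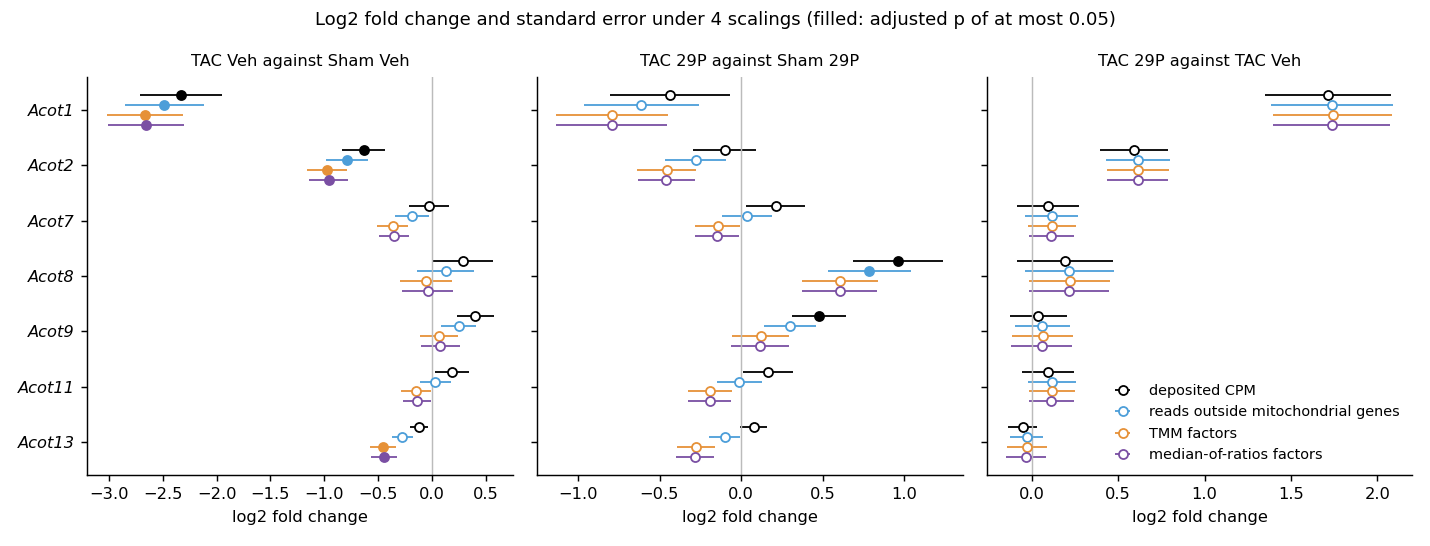
Log2 fold change and standard error of each member on deposited CPM and under 3 other scalings, in the 2 surgery comparisons and in TAC 29P against TAC Veh; filled points had an adjusted p of at most 0.05. In the surgery comparisons all members shift to lower values with TMM and median-of-ratios factors, which leaves Acot8 at 0.61 and Acot9 at 0.12 unfilled in the 29P comparison, while in TAC 29P against TAC Veh the 4 values of Acot1 lie between 1.71 and 1.74.

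Other features of the libraries moved with surgery, or between the TAC groups, and are given beside the pair, and their part in the result was not tested. The summed level of 8 fibroblast markers ran from 969 to 1475 CPM in Sham Veh, 812 to 1085 in Sham 29P, 2379 to 4109 in TAC Veh and 1498 to 3974 in TAC 29P. Its genes differed in size of change between Sham Veh and TAC Veh. Postn ran from 51.8 to 98.8 and from 411 to 1153 CPM. Pdgfra ran from 33.3 to 52.6 and from 53.3 to 62.2, and Tcf21 from 5.59 to 8.37 and from 6.45 to 11.2. Col1a1, Col1a2, Col3a1, Dcn and Lum were higher in every TAC Veh library. The summed level of 8 macrophage markers ran from 313 to 367, 211 to 407, 464.95 to 729 and 450 to 600 CPM in the same order of groups. Transcripts of 5 red blood cell genes summed to 1018 to 2463 CPM in Sham Veh, 562 to 1680 in Sham 29P, 3082 to 4992 in TAC Veh and 1036 to 4151 in TAC 29P, so 5 of the 6 TAC 29P libraries lay below all 3 of TAC Veh. Endothelial markers (8 genes) summed to 704 to 1143 CPM in Sham Veh, 560 to 1084 in Sham 29P, 1147 to 1496 in TAC Veh and 1019 to 1457 in TAC 29P. Adipocyte markers, 5 of 8 of them listed, summed to 18.01 to 30.3, 15.6 to 20.3, 33.6 to 68.6 and 28.7 to 83.8 CPM in the same order of groups. Most of that difference was Dio2, at 1.85 to 4.87 CPM in Sham Veh and 13.4 to 46.3 in TAC Veh. Cidea ran from 13.4 to 19.1 and from 17.3 to 22 CPM in these groups. Adipoq, Plin1 and Cidec were at most 0.160 CPM in TAC Veh and reached 3.85 CPM in Sham Veh (Cidec in S20). On deposited CPM the summed level of 8 cardiomyocyte markers overlapped between all groups, from 45189 to 57354 CPM in Sham Veh and from 43194 to 48704 in TAC Veh. The TMM factors ran from 0.783 to 0.966 in Sham libraries and from 1.05 to 1.21 in TAC libraries. Dividing by them raises every Sham sum and lowers every TAC sum, so this overlap cannot be carried to the TMM scale. In bulk tissue, fewer cells of a type and less RNA per cell cannot be told apart.

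The animal numbers in the library descriptions fall into 4 runs. No label calls these runs batches. Acot1 was lower in TAC Veh than in Sham within each of the 3 runs that held both. In the run of S1 to S11, Acot1 was at 1.77 CPM in the TAC Veh library, 6.47 to 10.6 in 5 TAC 29P libraries and 12.9 to 17.8 in 3 Sham libraries. In the next run it was at 2.39 CPM in TAC Veh (S12) against 4.26 and 10.7 in Sham (S14 and S13), and in the third at 2.56 in TAC Veh (S16) against 12.5 in Sham 29P (S15). The last run held no TAC Veh library. There the TAC 29P library S18 was at 5.24 CPM, beside 5.74 and 15.7 in S19 and S20. With a term for the run the log2 fold change of Acot1 was −2.52 between TAC Veh and Sham Veh (adjusted p = 0.00307) and 1.64 between TAC 29P and TAC Veh (adjusted p = 1.0). Without S18, S19 and S20 the values were −2.48 (adjusted p = 0.00449) and 1.81.

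Genes that moved most like each member were sought by the correlation of deviations from the group means over the 17 libraries, among 14054 genes with a mean of at least 1 CPM. These are descriptions, since the libraries share depth and quality. For Acot1 they were Eci1, an enoyl-CoA isomerase of fatty acid oxidation (r = 0.93), Coq4, of coenzyme Q synthesis (r = 0.92), and Acot2 itself (r = 0.91). Over the 15 libraries left without the farthest pair, r was 0.85 for Eci1, 0.79 for Coq4 and 0.80 for Acot2. Acot1 and Acot2 share sequence, and the part of shared reads in their r was not tested. For Acot2 they were Ckmt2, the mitochondrial creatine kinase of muscle, Mlycd, malonyl-CoA decarboxylase, and Eci1 (r = 0.93, 0.93 and 0.92). Without the pair of libraries farthest for Acot2, these were 0.83, 0.84 and 0.84. For Acot13 all 3 were subunits of complex I of the respiratory chain, Ndufb5, Ndufs5 and Ndufb9 (r = 0.92, 0.91 and 0.90). Acot7 went with Ube2m, Psmd3 and Caskin2 (r = 0.98, 0.97 and 0.97) and Acot8 with Mfsd13a, Ruvbl2 and B4galt7 (r = 0.97, 0.96 and 0.96). Acot9 went with Ifi211, Medag and Nck1 (r = 0.93, 0.92 and 0.92). It had negative r with Acot2 (−0.49), Acot11 (−0.45), Acot1 (−0.31), Acot7 (−0.17) and Acot8 (−0.16), and 0.06 with Acot13. Acot11 went with Nipsnap2, Lingo3 and the predicted gene Gm6728 (r = 0.93, 0.92 and 0.91).

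The genes around thioesterases in acyl-CoA metabolism were taken as lists, each set beside the median over the genes tested, 0.35 in TAC Veh against Sham Veh. Of 28 genes known to respond to PPARα, 25 were tested, 7 were called lower and 0 higher, where 1.91% of all genes were called lower and 22.5% higher, and their median was −0.38. Acaa2, the last thiolase of mitochondrial β-oxidation, fell by 0.93 ± 0.16 on the log2 scale (limma adjusted p = 0.00186), and Ech1, a dienoyl-CoA isomerase, by 0.86 ± 0.17 (adjusted p = 0.00377). The uncoupling protein gene Ucp3 (−1.07, adjusted p = 0.142) did not pass. Acaa2, Ech1, Decr1 and Acadm, all on this list, also belong to the panel the study chose on these libraries. Hadha, on this list and called lower (−0.41, adjusted p = 0.0356), was shown by the study among hypertrophy genes that 29P restored. The direction of the list is therefore not independent evidence. In TAC 29P against Sham 29P, 4 of the 25 were called lower and 2 higher, where 1.12% and 31.4% of all genes were (median −0.10 against 0.37 for all genes). With 29P in TAC 0 were called, 7 were higher and 0 lower at an unadjusted p of 0.05, where 1.05% of all genes were higher and 0.931% lower, and the median was 0.26 against −0.02 for all genes.

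Acyl-CoA synthetases and fatty acid transporters, which make the substrate of thioesterases, went both ways. Of 15 tested, 1 was called higher and 2 lower in TAC Veh against Sham Veh, with a median of 0.15. Over all genes tested 22.5% were called higher and 1.91% lower. Acsm5, a medium-chain acyl-CoA synthetase, fell by 1.75 ± 0.31 (limma adjusted p = 0.00197) and Acsl6 by 0.68 ± 0.21 (adjusted p = 0.0275), while Slc27a3 (1.84, adjusted p = 0.0504) and Acss3 (−1.40, adjusted p = 0.101) did not pass. Under 29P, 2 were called higher and 1 lower in TAC than in Sham, the latter being Acsm5 (−1.28, adjusted p = 0.00737). In that comparison 31.4% of all genes were called higher and 1.12% lower. Of 12 tested genes for the making, transport and breakdown of coenzyme A, 1 was called lower and 1 higher in the vehicle comparison. The shares of all genes there were again 1.91% lower and 22.5% higher. Pank1, a pantothenate kinase that starts coenzyme A synthesis, fell by 0.47 ± 0.12 (adjusted p = 0.0130) and its relative Pank3 rose by 0.34 ± 0.11 (adjusted p = 0.0298), a value that lies at the median of all genes. Ppcdc (0.56) and Coasy (0.34) did not pass. Of 9 tested PPAR regulators, 1 was called, Ppard with 0.78 ± 0.28 (adjusted p = 0.0490), where 22.5% of all genes were called higher. Ppara had 0.44, Rxra 0.44 and Ppargc1a −0.89, with adjusted p between 0.193 and 0.337. Between TAC 29P and TAC Veh 0 genes of these 3 lists were called by limma, as were 0% of all genes tested. At an unadjusted p of 0.05, 1 synthetase or transporter gene, 0 coenzyme A genes and 0 regulators were higher, where 1.05% of all genes were.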

How the data were processed

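PolyA RNA libraries (NEBNext Ultra II) of 17 left ventricular apices were sequenced by the authors, who per the submitters' processing notes and the study's methods aligned reads with STAR 2.3.7 in Partek Flow to mm10. The counting tool and strand setting are not given in the sources used here. The authors deposited a table of CPM with 0.0001 added to each value. Of low values, 77.6% to 80.4% per library were whole multiples (within 0.05) of 1 read, so counts were not recovered and no count model was used.

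Genes with a CPM of at least 0.5 in at least 3 libraries (16218) were fitted on log2 of the deposited CPM with limma 3.58.1 (R 4.3.3; trended variance, 4 group means, 13 residual degrees of freedom), with Benjamini-Hochberg adjustment over all genes and a threshold of 0.05. The script was tested on simulated data. SE is the moderated standard error. Exact two-sided permutation tests used scipy 1.17.1. p-values set differences between groups against the spread between mice. Positions, exon lengths and sequences came from GENCODE M21 (GRCm38), whose build the mm10 table shares. It could not be matched to the annotation release the study names. Coding sequences were aligned with Biopython 1.88. Alternatives were TMM factors (30% of log ratios and 5% of levels trimmed), median-of-ratios factors, scaling to reads outside 16 mitochondrial genes, constants of 0.1 and 1 CPM, no filter or 1 CPM, fits of the compared groups alone, the run of animal numbers, each library left out, and, chosen after seeing the data, S18, S19 and S20 left out and the longest coding transcript as length. The members and lists were chosen with earlier results of these data known. Genes named are all members, other thioesterases, the 3 genes most like each member, and up to 4 genes per list with the largest absolute log2 fold change in TAC Veh against Sham Veh and a mean of at least 1 CPM. Of the genes this rule selects, 1 is not reported here.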

Additional observations from a re-analysis of the deposited data

Results flagged for a closer look

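Outliers were sought in the 14 sets of 5 or 6 libraries that the 7 members gave in Sham Veh and TAC 29P, where chance flags about 1 in 20. The lowest Acot2 value of Sham Veh, a log2 CPM of 5.09 in S19 (34.2 CPM), was separated from the next library by 0.774 of the group's range. The highest Acot11 value of TAC 29P, 4.10 in S1 (17.2 CPM), was separated by 0.645 of the range. For Acot1 the change with 29P in TAC was larger than that in Sham by 1.90 ± 0.53 on the log2 scale (limma unadjusted p = 0.00213, adjusted p = 0.998), and leaving out 1 library moved this between 1.29 and 2.32. All 6 TAC 29P libraries were above all 3 TAC Veh libraries, and the Sham groups overlapped.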

How the results depend on the processing

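No paired analysis was made, because each library came from a different mouse and the labels used here name no pairs of mice. The 2 members called lower in TAC Veh against Sham Veh were 1 to 3 called members when 1 library was left out, and 3 with TMM or median-of-ratios factors (Acot13 added, lower), and 3 with the run of animal numbers or without S18, S19 and S20 (Acot9 added, higher). The 2 called higher in TAC 29P against Sham 29P were 0 with TMM factors, 0 with median-of-ratios factors, 0 with the run as a covariate, 1 with scaling to reads outside mitochondrial genes, and 0 to 2 when 1 library was left out. With an unadjusted p of 0.05, 2 members were called in TAC 29P against TAC Veh, 1 in Sham 29P against Sham Veh and 1 in the difference of the changes with 29P. Over all genes tested in TAC Veh against Sham Veh, 3648 were called higher and 310 lower on deposited CPM, and 626 and 933 with TMM factors. For TAC 29P and Sham 29P these counts were 5097 and 181, and 925 and 801. Median-of-ratios factors gave 681 and 863, and 930 and 806. Scaling to reads outside mitochondrial genes gave 1586 and 504, and 2018 and 360. The run left 679 and 27 in the second comparison, and fitting 2 groups alone left 2414 and 195 in the first.

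Signs turned only for log2 fold changes that did not pass the test. In TAC Veh against Sham Veh, Acot8 was −0.052 and Acot11 −0.15 with TMM factors, and −0.040 and −0.14 with median-of-ratios factors. In TAC 29P against Sham 29P, TMM factors gave Acot7 −0.14, Acot11 −0.19 and Acot13 −0.28, median-of-ratios factors gave −0.15, −0.19 and −0.28, and reads outside mitochondrial genes gave Acot11 −0.011 and Acot13 −0.10. In Sham 29P against Sham Veh, Acot9 was 0.0065 with TMM factors, 0.018 with median-of-ratios factors, 0.0094 with reads outside mitochondrial genes, 0.050 with the run and 0.16 without S18, S19 and S20, and Acot2 was −0.10 with the run and −0.077 without those libraries. In TAC 29P against TAC Veh, the run gave Acot8 −0.017 and Acot9 −0.020. In the difference of the changes with 29P, Acot9 was −0.071 with the run and −0.15 without S18, S19 and S20. When 1 library was left out, signs also turned within these ranges: Acot7 −0.14 to 0.030 in TAC Veh against Sham Veh; Acot2 −0.36 to 0.050 and Acot7 −0.086 to 0.41 in TAC 29P against Sham 29P; Acot9 −0.13 to 0.14 and Acot11 −0.031 to 0.23 in TAC 29P against TAC Veh. In Sham 29P against Sham Veh the ranges were Acot1 −0.61 to 0.42, Acot2 −0.092 to 0.31, Acot7 −0.34 to 0.15, Acot9 −0.16 to 0.065 and Acot11 −0.0067 to 0.23. In the difference of the changes they were Acot7 −0.059 to 0.43, Acot9 −0.089 to 0.19 and Acot11 −0.14 to 0.11. The cause was not tested.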
